A study of Mus musculus with 2 samples.

Results

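The 9 genes described here tune or carry out Notch signalling, from the receptor at the cell surface to the DNA in the nucleus. They were taken as a named list (Rbpj, Maml1, Maml2, Nrarp, Lfng, Mfng, Rfng, Numb and Dtx1) and matched to the array by the RefSeq accession of each probe. All 9 were found among the 20433 genes of the array that received a symbol, through 13 of its 54948 probes. The study compared 2 stable lines of ATDC5, a mouse chondrocyte cell line, each made by lentiviral transduction. One was labelled as overexpressing HES1, and the other, its control, as overexpressing GFP, a fluorescent protein. Both grew as monolayers for 3 days on 60 mm dishes, and the total RNA of each was hybridised to 1 single-colour Agilent mouse array. Each group was thus 1 array from 1 transduced line, with no replicate, so no difference below carries a p-value and none can be told apart from a difference between 2 cultures of the same line.

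Notch receptors are cut when a ligand on a neighbouring cell binds them, and the freed intracellular domain moves to the nucleus. There it joins the DNA-binding protein RBPJ and a mastermind-like coactivator, and the complex turns on targets such as HES1, NRARP and, in some tissues, LFNG. Fringe enzymes set which ligands a receptor answers to by extending sugars on its extracellular domain, while Numb and Deltex proteins steer the receptor through endocytosis and ubiquitination. In cartilage, Notch signalling through RBPJ takes part in the control of chondrocyte proliferation and maturation. HES1 is a repressor that binds N-box and class C sequences in DNA, and in the mouse presomitic mesoderm its relative Hes7 represses Lfng.

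The stretch around the annotated transcription start is shown for the 3 genes with the lowest differences in the HES1 sample, Lfng, Rfng and Rbpj, and for Maml1, whose difference lay nearest 0 among the measured genes. Sequences are those of RefSeq on GRCm38.p6, from 250 bases before to 50 after the start, 5′ to 3′ on the gene's strand. The Lfng window is chr5:140607091-140607390 (+ strand) and the Rfng window chr11:120784155-120784454 (- strand). The Rbpj window shown, 1 of 2 annotated, is chr5:53590096-53590395 (+ strand), and the Maml1 window is chr11:50292287-50292586 (- strand). Capitals mark every match, on either strand, to the N-box CACNAG, the class C site CACGNG or the RBPJ core TGGGAA.
Lfng: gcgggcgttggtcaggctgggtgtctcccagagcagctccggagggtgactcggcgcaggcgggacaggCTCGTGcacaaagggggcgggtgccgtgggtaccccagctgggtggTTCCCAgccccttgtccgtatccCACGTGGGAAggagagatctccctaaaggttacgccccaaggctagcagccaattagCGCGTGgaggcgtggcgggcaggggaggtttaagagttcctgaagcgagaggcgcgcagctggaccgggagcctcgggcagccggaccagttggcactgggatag
Rfng: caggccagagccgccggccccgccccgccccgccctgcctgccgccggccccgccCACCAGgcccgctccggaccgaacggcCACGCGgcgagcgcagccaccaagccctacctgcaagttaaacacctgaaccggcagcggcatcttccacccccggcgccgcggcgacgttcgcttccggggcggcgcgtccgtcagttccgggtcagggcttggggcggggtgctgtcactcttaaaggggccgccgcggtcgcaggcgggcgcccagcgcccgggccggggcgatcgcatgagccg
Rbpj: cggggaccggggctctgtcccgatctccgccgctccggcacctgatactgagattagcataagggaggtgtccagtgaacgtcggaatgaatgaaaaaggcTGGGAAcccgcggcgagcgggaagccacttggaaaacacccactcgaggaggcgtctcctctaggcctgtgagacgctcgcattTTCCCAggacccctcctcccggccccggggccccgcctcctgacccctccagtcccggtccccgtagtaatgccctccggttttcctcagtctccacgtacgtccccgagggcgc
Maml1: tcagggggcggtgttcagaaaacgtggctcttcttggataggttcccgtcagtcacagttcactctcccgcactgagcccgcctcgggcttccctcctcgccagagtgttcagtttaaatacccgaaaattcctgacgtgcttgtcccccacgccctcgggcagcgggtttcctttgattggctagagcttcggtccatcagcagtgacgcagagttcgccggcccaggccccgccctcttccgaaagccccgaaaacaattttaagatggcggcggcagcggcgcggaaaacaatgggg

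The Lfng window held matches to all 3 motifs. A class C match, CACGTG, began at -112 relative to the start, and an RBPJ core, TGGGAA, began at -108, so that they shared bases in a single run of capitals. A second RBPJ core lay at -135, and other class C matches lay at -181 and -55. The match at -181, CTCGTG, fits both the N-box and the class C letters. The Rfng window held 1 N-box at -195 and 1 class C match at -168, with no RBPJ core. The Rbpj window held 2 RBPJ cores, at -149 and -65, and no N-box or class C match, and the Maml1 window held none of the 3. Windows not shown held matches too. A Numb window (difference 0.25) had CTCGTG at -100, which fits both the N-box and the class C letters. A Maml2 window (0.42 on its brighter probe) had an N-box at -193. Nrarp and Dtx1, not well above background, had both N-box and class C matches. The class C match of Nrarp was CACGTG, which fits the E-box letters too. A promoter entry was found for 8 of the 9 genes, in 12 windows; Mfng was the gene not matched. Of those 12 windows, 6 held an N-box, 5 a class C match, 4 an RBPJ core and 8 the E-box CANNTG, whose letters include CACGTG. Over all 32851 windows of the table the shares were 42.5% for the N-box, 27.5% for the class C site, 25.6% for the RBPJ core and 72.3% for the E-box. These short motifs are therefore common, and a match describes the letters only.

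Signals are given in scanner units with both arrays set to a 75th percentile of 1057.2, and each probe is compared between arrays, not with other probes. The HES1 array had 56.6% of its spots well above background and the GFP array 54.6%, and the 2 arrays lay on 1 slide. The lowest signal well above background was 39.0 on the HES1 array and 38.1 on the GFP array. Errors are those of the scanner software for a probe's log2 difference, and they leave out all spread between cultures. The probe for mouse Hes1 was well above background on neither array, with signals of 10.3 in the HES1 sample and 10.2 in the GFP sample. It therefore checked neither label. Whether the transgene carries the sequence this probe matches is not stated in the sources used here.

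The 9 genes did not move as a block. A signal well above background on some array was found for 7 of them, in each case on both arrays, and Lfng alone was at least 2-fold lower in the HES1 sample. None was 2-fold higher, 6 lay within 2-fold, and Nrarp and Dtx1 were not well above background on either array. Over all genes well above background on at least 1 array, 4.95% were at least 2-fold lower and 11.1% at least 2-fold higher. With both arrays required, these shares were 4.41% and 7.04%. The median log2 difference of the 7 genes was 0.08, against -0.06 over all 14273 genes, and its sign turned to -0.07 under quantile normalization, to -0.02 under a normexp background correction and to -0.01 with the median over a gene's probes. Below 0 lay 3 of the 7 genes and 55.0% of all genes. The count of 1 rests on a single gene with 1 probe.

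**Figure D1:**
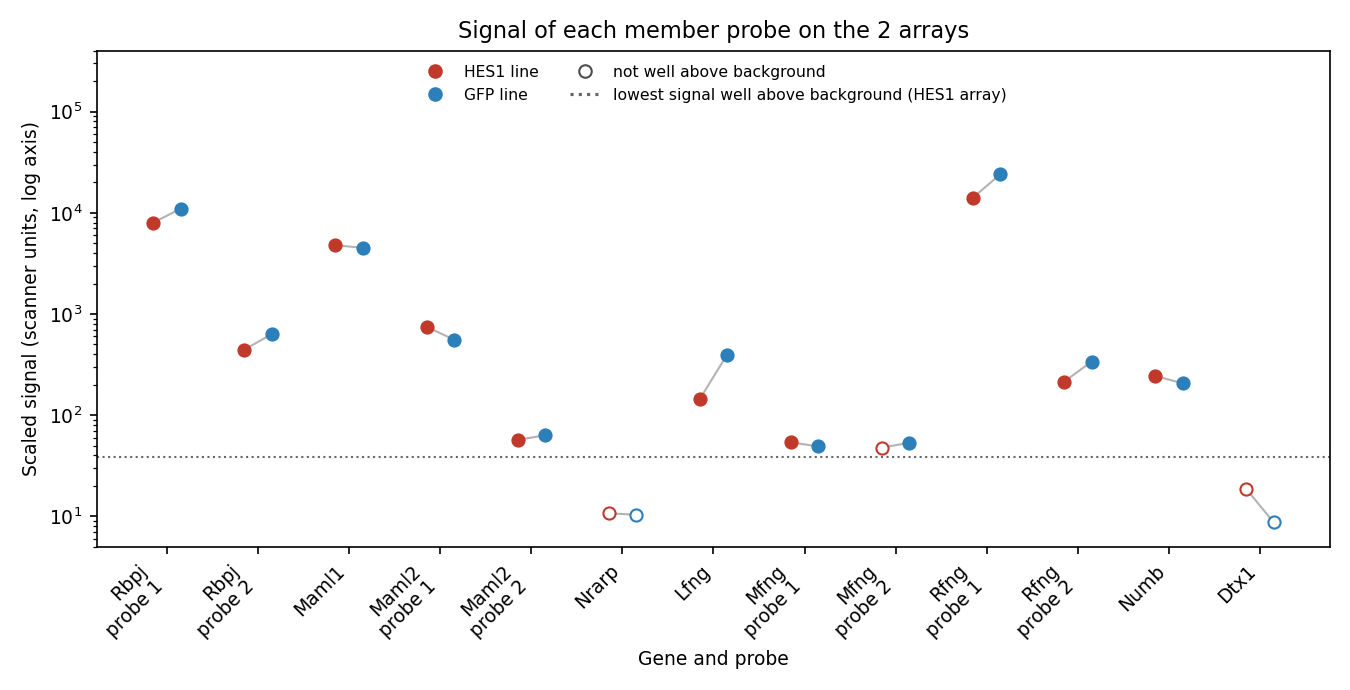
Scaled signal (scanner units, log axis) of each of the 13 probes on the HES1 array (red, left of each pair) and the GFP array (blue, right). Filled points were well above background, open points were not, and the dotted line is the lowest signal well above background on the HES1 array (39.0). Lfng shows the steepest line among filled pairs, with 144 in the HES1 sample and 397 in the GFP sample, while Nrarp and Dtx1 lie under the dotted line.

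Among the Fringe enzymes, which add N-acetylglucosamine to O-linked fucose on Notch receptors, the lunatic fringe gene Lfng (NM_008494) stood lowest. Its signal was 144 in the HES1 sample and 397 in the GFP sample, a log2 difference of -1.46 with a scanner error of 0.23, or 2.75-fold lower. The unscaled spots already showed the gap. The median pixel signal was 181.5 over a local background of 46 in the HES1 sample, and 364 over 52 in the GFP sample. Net of background this left 135.5 in the HES1 sample and 312 in the GFP sample, a log2 ratio of -1.20 before any scaling. That is smaller in size than -1.46, which comes from the processed signal of the scanner software. Scaling does not make up this gap, since its factor was larger for HES1 (1.53) than for GFP (1.45). The difference of -1.46 was 6.46 times the scanner error. Of 3520 probes whose mean signal lay within 2-fold of that of Lfng, 5.99% were at least 2-fold lower in the HES1 sample and 1.45% had a lower difference than Lfng. The normexp setting took median spot signals and their local background in place of the processed signal. It also added an offset of 50, which draws dim probes together, and was followed by quantile normalization. Under it the difference was -0.95 and no longer reached 2-fold, and the parts of these steps were not separated.

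The radical fringe gene Rfng (NM_009053) was also lower in the HES1 sample, but within 2-fold. Its brighter probe read 14162 in the HES1 sample and 24069 in the GFP sample, a log2 difference of -0.77 with an error of 0.20. Its dimmer probe read 214 in the HES1 sample and 338 in the GFP sample, a difference of -0.66 with an error of 0.21. The probes thus differed from each other by 0.11, less than the 0.15 that was the median gap over 2838 genes with a pair of probes on both arrays. Of probes with a similar mean signal, 6.43% had a lower difference than the brighter Rfng probe and 14.5% a lower one than the dimmer probe. Rfng kept its side of 0 under every scaling run, with -0.60 after a loess fit as its brighter probe's smallest difference.

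The manic fringe gene Mfng (NM_008595) was barely above background. Its first probe read 53.8 in the HES1 sample and 49.0 in the GFP sample, a log2 difference of 0.13 with an error of 0.44. Its other probe, at 47.8 in the HES1 sample and 53.3 in the GFP sample, was not well above background in the HES1 sample. Its plain ratio was 1.12-fold lower. The rule for bounds given below yields the same value, and such bounds are approximate. The pair pointed in opposite directions, each by less than its error, and the first probe's sign turned under quantile normalization (-0.07) and normexp (-0.02). No direction is given for Mfng. The array thus gave 3 Fringe genes with 3 different readings: Lfng past 2-fold, Rfng lower within 2-fold on both probes, and Mfng too dim to place.

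**Figure D2:**
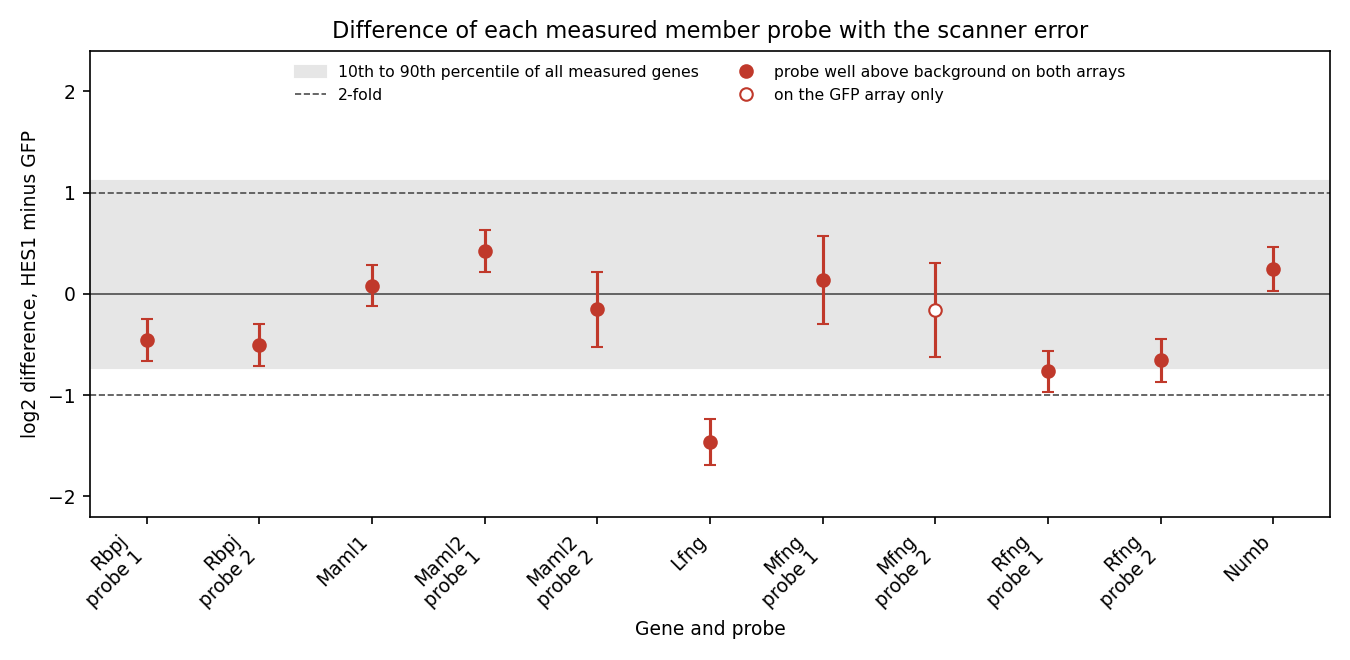
Log2 difference (HES1 minus GFP) of each of the 11 probes seen on at least 1 array, with the scanner error as bars, which leaves out culture-to-culture spread. The grey band is the 10th to 90th percentile of all measured genes (-0.73 to 1.12) and dashed lines mark 2-fold. Lfng at -1.46 lies below both, and the brighter Rfng probe at -0.77 lies just under the band.

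Of the nuclear complex, Rbpj (NM_009035), the DNA-binding core that represses its sites when no Notch domain is present, was lower in the HES1 sample on both probes and within 2-fold. The brighter probe read 7992 in the HES1 sample and 10961 in the GFP sample, a log2 difference of -0.46 with an error of 0.20. The dimmer probe read 444 in the HES1 sample and 631 in the GFP sample, a difference of -0.51 with an error of 0.21. Its probes lay 0.05 apart. Of probes with a similar mean signal, 19.5% had a lower difference than the brighter Rbpj probe, so a gap of this size was common on these arrays. Over the alternative scalings the brighter probe ran from -0.46 to -0.30.

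Maml1 and Maml2, both mastermind-like coactivators, lay within 2-fold. Maml1 (NM_175334), which bridges the Notch domain and RBPJ to the acetyltransferase p300, read 4773 in the HES1 sample and 4514 in the GFP sample. Its log2 difference of 0.08 was smaller than its error of 0.20. Maml2 (NM_001013813) read 748 in the HES1 sample and 557 in the GFP sample on its brighter probe, a difference of 0.42 with an error of 0.21. Its dimmer probe, at 56.8 in the HES1 sample and 63.2 in the GFP sample, gave -0.15 with an error of 0.37. These probes lay 0.58 apart, slightly past the 0.57 that was the 90th percentile of such gaps over all genes with a pair of probes. The direction of Maml2 was therefore not settled by the array. For Maml1 the values stayed between 0.08 and 0.23 across scalings.

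Nrarp (NM_025980), a Notch target whose product limits the Notch domain as feedback, read 10.7 in the HES1 sample and 10.4 in the GFP sample. Neither signal was well above background, so no fold is given. The ubiquitin ligase gene Dtx1 (NM_008052), a mouse counterpart of Drosophila deltex, read 18.5 in the HES1 sample and 8.69 in the GFP sample. Dtx1 too was well above background on neither array. Its numerical gap of 1.09 on the log2 scale was smaller than its error of 1.61. Numb (NM_010949), an endocytic adaptor that lowers Notch at the cell surface, was measured on both arrays. It read 244 in the HES1 sample and 206 in the GFP sample, a log2 difference of 0.25 with an error of 0.22, and 0.07 under normexp. Single probes stood for Numb, Lfng, Maml1, Nrarp and Dtx1, so these genes had no second reading on the array.

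**Figure D3:**
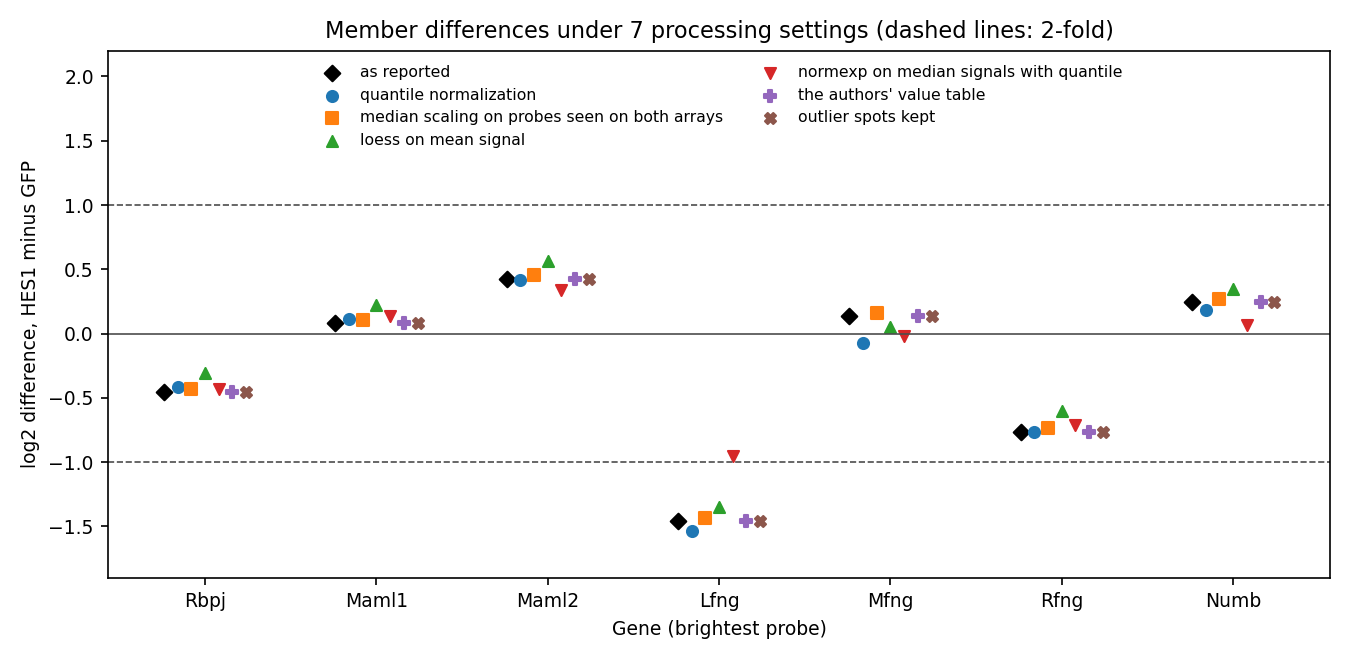
Log2 difference (HES1 minus GFP) of the brightest probe of each of the 7 measured genes under the reported processing and 6 alternatives, with dashed lines at 2-fold. Lfng lies below -1 in all but the normexp setting (-0.95), Rbpj and Rfng stay below 0 in all, and Mfng lies on either side of 0.

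One scaling moved the median of all genes by more than 0.1 on the log2 scale, with bright and dim probes moved by different amounts. When the difference was fitted on mean signal by loess, the median over all genes was 0.07, against -0.06 as reported, and relative to those medians Lfng stood at -1.42 after loess and -1.40 as reported. Rfng stood at -0.67 after loess and -0.70 as reported, and Rbpj at -0.38 after loess and -0.39 as reported. The order of these 3 genes was thus kept relative to the other genes on the array.

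The rest of the Notch pathway gave the setting in which these 9 genes lie. Of 70 other pathway genes listed, 67 were matched and 61 measured. Of these, 5 were at least 2-fold lower in the HES1 sample and 4 at least 2-fold higher, or 4 and 3 when genes seen on 1 array are held to their bounds. The split was 3 lower and 4 higher after loess, and 1 lower and 2 higher under normexp. Their median log2 difference was -0.29, and 40 of the 61 lay below 0. Over all 14273 measured genes the median was -0.06 and 55.0% lay below 0. Of those genes 4.95% were at least 2-fold lower and 11.1% at least 2-fold higher.

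Closest to the mastermind pair was Maml3, the remaining member of that coactivator family. It read 1162 in the HES1 sample and 2720 in the GFP sample, 2.34-fold lower with a log2 difference of -1.23, and a dimmer probe gave -1.52. Another Maml3 probe was well above background on neither array. Maml3 was therefore lower on both readable probes, whereas Maml1 and Maml2 were not past 2-fold. The brighter Maml3 probe stayed between -1.23 and -1.08 under every scaling run, and the dimmer one was at -0.74 under normexp. Of all genes seen on both arrays, 4.41% were at least 2-fold lower and 7.04% at least 2-fold higher. Among all 9 other nuclear cofactors, each seen on both arrays, 2 were past 2-fold and both were lower. The second was Rbpjl, a relative of Rbpj known from pancreatic acinar cells, at 125 in the HES1 sample and 269 in the GFP sample, a difference of -1.11 that came to -0.70 under normexp. The acetyltransferase genes Ep300 (-0.26), Crebbp (0.04) and Kat2b (0.57) lay within 2-fold.

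Of 11 measured corepressors that bind RBPJ in the absence of Notch, 8 lay below 0 and 1 was at least 2-fold lower. Among all genes seen on both arrays, 57.9% lay below 0 and 4.41% were at least 2-fold lower. The corepressor past 2-fold was Bend6, an RBPJ-binding protein known from mouse neural cells, at 2434 in the HES1 sample and 4904 in the GFP sample, 2.01-fold lower. This call was lost after loess (-0.87) and under normexp (-0.94). Spen, the large scaffold of this complex, had a difference of -0.66. The median of the list was -0.44.

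The enzymes that build the sugars beside or beneath those of the Fringe genes had a median of -0.33 over 6 genes. Gxylt1, which adds xylose to O-linked glucose on Notch, read 2535 in the HES1 sample and 5277 in the GFP sample, 2.08-fold lower. Its other probe gave a difference of -0.34, so its 2-fold reading rests on 1 of 2 probes, and that probe came to -0.91 after loess. Pofut1, which adds the fucose that Fringe enzymes extend, had a difference of -0.57, within 2-fold.

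Among pathway genes seen on both arrays, the largest difference lay with the genes of endocytosis and ubiquitination. Dtx3l, a deltex relative that partners with PARP9 and is induced by interferon, read 17414 in the HES1 sample and 777 in the GFP sample. This was 22.4-fold higher, and a second probe was 10.5-fold higher. The other 14 measured genes of this list lay within 2-fold. Among deltex relatives Dtx2 had a difference of 0.59, Dtx4 of 0.53 and Dtx3 of 0.09, while Numbl, the relative of Numb, had -0.77. The 8 measured genes for receptor cleavage all lay within 2-fold, and Aph1b, a subunit of gamma-secretase, was the lowest at -0.89 on its brighter probe and -0.29 on the other.

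Receptors, ligands and target repressors past 2-fold were all seen on 1 array only. The receptor gene Notch3, at 117 in the HES1 sample and 13.5 in the GFP sample, was at least 3.07-fold higher. The ligand gene Dll1, at 497 in the HES1 sample and 32.8 in the GFP sample, was at least 13.0-fold higher. Dlk1, which encodes a noncanonical ligand, was at 10.5 in the HES1 sample and 72.3 in the GFP sample, at least 1.85-fold lower, and its other probe was readable on neither array. The repressor gene Hey2 was at 61.8 in the HES1 sample and 9.06 in the GFP sample, at least 1.62-fold higher. By bounds, only Notch3 and Dll1 of these 4 passed 2-fold, and under normexp only Dll1 did, at 1.84 on the log2 scale.

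**Figure D4:**
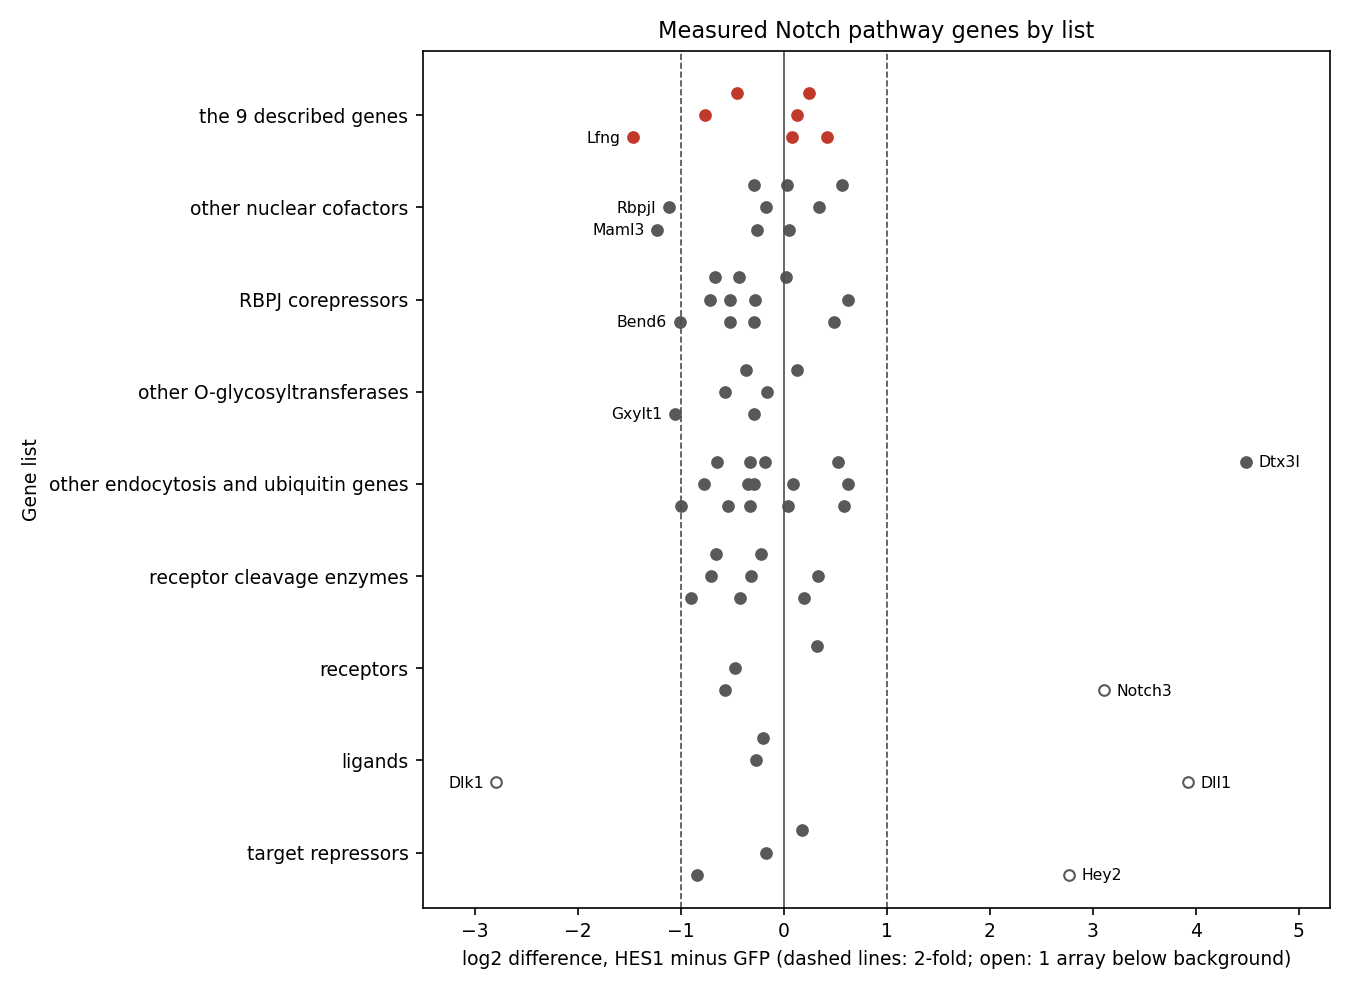
Log2 difference (HES1 minus GFP, x axis) of each measured Notch pathway gene by list (y axis, spread vertically for legibility only). Of the 9 genes described here, the 7 measured ones are in red at the top, and dashed lines mark 2-fold. Open points were well above background on 1 array, so their plotted difference is not a bound. Lfng (-1.46) lies with Maml3, Rbpjl, Bend6 and Gxylt1 on the lower side. Dlk1 (-2.79, open point) lies farthest to the left and Dtx3l (4.49) farthest to the right.

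Cell type markers were read on the same arrays. Of 12 chondrocyte markers 8 were measured, among them Sox9 (3227 in the HES1 sample and 3683 in the GFP sample) and Col2a1 (7379 in the HES1 sample and 13796 in the GFP sample), while Matn1, Matn3, Hapln1 and Snorc were not well above background. Of those 8 chondrocyte markers 7 lay below 0, as did 55.0% of all measured genes, and their median log2 difference was -0.28. Sox5 (-0.13) and Col11a2 (-0.16) were below 0 by less than their scanner errors. Sox6, seen in the GFP sample only, was at least 1.48-fold lower. Of 6 osteoblast markers 4 were measured, while Bglap was not matched on the array and Dmp1 was well above background on neither array. All 4 measured osteoblast markers were below 0, 3 of them at least 2-fold lower, with summed signals of 8291 in the HES1 sample and 15839 in the GFP sample. Of all genes seen on both arrays, as these 4 were, 57.9% lay below 0 and 4.41% were at least 2-fold lower. Of 7 leukocyte markers 3 were measured, summing to 2576 in the HES1 sample and 2545 in the GFP sample. The brightest Csf1r probe (0.04) made up most of those sums, and its other readable probe gave -0.36. Ptprc, at 47.8 in the HES1 sample and 25.2 in the GFP sample, was seen in the HES1 sample only and was at least 1.25-fold higher. Tyrobp, Laptm5, Adgre1 and Aif1 were well above background on neither array. Of 5 endothelial markers 2 were measured, summing to 8858 in the HES1 sample and 8539 in the GFP sample, with Cdh5, Tek and Emcn not well above background. The brighter Kdr probe made up most of those sums. A second Kdr probe read 480 in the HES1 sample and 10.8 in the GFP sample, where it was not well above background, and was at least 12.6-fold higher. Adipocyte and muscle lists had 1 measured gene each, Fabp4 at 80.1 in the HES1 sample and 130 in the GFP sample, and Acta1 at 863 in the HES1 sample and 1043 in the GFP sample. Chondrocyte and osteoblast markers both lay mostly in the direction of Lfng and Rfng, and their part in those differences was not tested. In RNA from a whole culture, fewer cells of a kind and less RNA per cell cannot be told apart.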

How the data were processed

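Per the labels, 0.1 µg of each line's total RNA went into Cy3 labelling. Agilent Feature Extraction 10.10.1.1 turned the scans into spot values, per the submitters' processing notes. The deposited scanner files hold an intensity per spot, background-subtracted and detrended per the file headers, with no scaling between arrays. The authors' value table held the same intensity times 1 factor per array (1.53 for HES1, 1.45 for GFP).

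The value used was log2 of the processed signal minus the array's 75th percentile over 59305 noncontrol spots. Spots with an outlier flag on either array (1053) were left out, no spot was saturated, and spots of a probe were averaged. A gene was read by its brightest probe well above background on at least 1 array. No test was run, since each group held 1 array, and genes were described by a 2-fold size. Where 1 array was below background, the bound divides the bright value by the dim one, or by that array's lowest value well above background if higher. Such bounds are approximate, since a probe can exceed that lowest value and still not be well above background. Symbols came from RefSeq accessions (GRCm38.p6, names only), for 26869 probes.

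Replicated probes (233, with at least 8 spots) had a median spot SD of 0.07 on the log2 scale. Precision is limited by the number of arrays. The 9 genes and the lists were chosen with earlier results of these data known. Named beside the 9 were up to 4 genes past 2-fold per list, or the largest; others were named after their values were seen. Calls were checked on simulated data as a check of the code only, and their accuracy for differences near 2-fold was not tested. Tools were Python 3.11.15, pandas 2.3.3, R 4.3.3 and limma 3.58.1.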

Additional observations from a re-analysis of the deposited data

How the results depend on the processing

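Of the 11 probes seen on at least 1 array, 9 moved by less than their scanner error under all 6 alternatives: quantile normalization, median scaling, a loess fit (span 0.3), normexp on median spot signals with quantile normalization, the authors' value table, and outlier spots kept. Under normexp Lfng moved to -0.95 and the dimmer Rfng probe to -0.43, so that 0 of the 9 genes were at least 2-fold lower, with 1 other pathway gene lower and 2 higher. The offset of 50 in normexp shrinks differences of dim probes by construction, and the change from processed to median signals was not separated from it. Loess left 3 other pathway genes lower. Requiring both arrays left 1 other pathway gene higher, since Notch3, Dll1 and Hey2 were seen on 1 array. With no filter on dim probes 1 of the 9 genes, Dtx1, counted as higher at signals not well above background. At 1.5-fold, 2 of the 9 genes and 14 other pathway genes were lower and 7 others higher, and at 3-fold 0 of the 9 and 1 other were lower. The median of the genes described here ran from -0.07 to 0.11. No paired analysis was possible because each group held 1 array. Signals near 38 to 39 limit Mfng, Nrarp and Dtx1.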
